A study of Mus musculus with 36 samples.

Results

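The libraries described here came from mouse embryonic gut with almost no RNA of Ret, the receptor tyrosine kinase of the cells that build the enteric nervous system, at E14.5 (E for embryonic day, 3 libraries) and at E12.5 (5 libraries). They were chosen by a limit of 1 FPKM on Ret among libraries labelled null, where FPKM is fragments per kilobase of transcript, scaled to the mapped fragments of the library, and make up 8 of the 36 libraries of the series. The series sequenced polyadenylated RNA of gut from C57BL/6J mouse embryos, wild type or labelled null for Ret, of both sexes, at 3 stages of which E10.5 was the earliest. The E14.5 group held female 2 and males 2 and 3. The E12.5 group held females 1, 2 and 3 and males 1 and 3. Every embryo behind these 8 libraries is labelled null for Ret on the C57BL/6J strain, and no other allele or treatment is named. The wild-type gut used for the last comparison had 6 libraries at E14.5 and 6 at E12.5, of the same strain and both sexes. The labels give neither the allele nor the litter, and do not say whether libraries came from separate embryos. P-values therefore measure the spread between these libraries, which may be technical.

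Ret (chr6:118151748-118197744, mm10) stood at 0.0587, 0.0221 and 0.0111 FPKM at E14.5, against 0.0263, 0.0451, 0.0301, 0.0218 and 0.0151 FPKM at E12.5, in the order female 2, male 2 and male 3 at E14.5 and female 1, female 2, female 3, male 1 and male 3 at E12.5, which is kept below. These values chose the libraries and were not tested. At these 2 stages, the libraries labelled null outside the limit were 3 at E14.5 with 5.76 to 6.49 FPKM and E12.5 male 2 with 6.12 FPKM. Wild type held 4.70 to 11.5 FPKM at E14.5 and 8.89 to 13.3 FPKM at E12.5. The 3 libraries at E14.5 were thus inside the wild-type range of their stage, and E12.5 male 2 was below that of its own. The labels therefore do not match Ret RNA in 4 libraries of these stages, and those 4 were left out. At E10.5, which is not compared here, 3 females labelled null held 4.74 to 5.76 FPKM of Ret.

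As background, enteric neurons and glia descend from neural crest cells that enter the foregut and migrate towards the hindgut. GDNF, secreted by gut mesenchyme, signals to these cells through Ret and its co-receptor GFRA1, and in the absence of Ret most of the gut is left without neurons. Over the same days the mesenchyme forms the circular muscle layer, and the endoderm changes from a stratified tube into an epithelium with villi and the first absorptive and secretory cells. Hedgehog ligands from the endoderm, and Bmp, Wnt and platelet-derived growth factor signals of the mesenchyme, take part in both.

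The libraries of the 2 stages differed in depth. The confidence intervals in the authors' files imply 6.19 to 7.47 M fragments per library at E14.5 and 17.5 to 41.0 M at E12.5, so stage and depth cannot be told apart. Between 13093 and 13205 genes reached 1 FPKM at E14.5, and between 12606 and 13142 at E12.5. E14.5 males 2 and 3 differed by 1.05 times the counting noise, with 1.59% of genes beyond 3 SD of that noise. Since the limits for counting a pair as 1 sample were 1.1 times and 1%, they were kept as 2 samples. Xist and Y-linked genes matched the labelled sex of all 8 libraries.

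Markers of stomach, liver, adrenal gland and hindgut differed between the libraries. Barx1, a transcription factor of stomach mesenchyme, stood at 50.99, 43.3 and 46.1 FPKM at E14.5, against 106, 1.103, 1.12, 75.1 and 97.2 FPKM at E12.5. E12.5 females 2 and 3 thus had almost none of it, and the stomach protease chymosin (Cym) was also lowest in both, at 0.379 and 0.279 FPKM. The same 2 libraries had the most albumin (Alb), a liver product, with 274 and 267 FPKM against 0.596 to 38.7 FPKM in the other E12.5 libraries and 0.743 to 12.1 FPKM at E14.5. Nr5a1, a factor of adrenal gland and gonad, had 0.150, 0.189 and 0.174 FPKM at E14.5, against 0.0365, 3.66, 3.58, 3.22 and 0.0575 FPKM at E12.5, high in E12.5 females 2 and 3 and male 1. Hoxd13, which marks the caudal end of the gut and the genital region, had 19.4, 0.993 and 0.698 FPKM at E14.5, against 0.362, 3.804, 3.25, 6.09 and 0.0537 FPKM at E12.5, highest in E14.5 female 2. Summed over whole marker lists, stomach genes came to 259.7 to 320.2 FPKM at E14.5 and 27.8 to 172 FPKM at E12.5. Liver genes came to 152 to 277 FPKM at E14.5 and 180 to 1293 FPKM at E12.5. The stage change of every list below was therefore also counted without E12.5 females 2 and 3, a choice made after seeing the data. List counts of the difference from wild type were not recounted in this way.

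**Figure D1:**
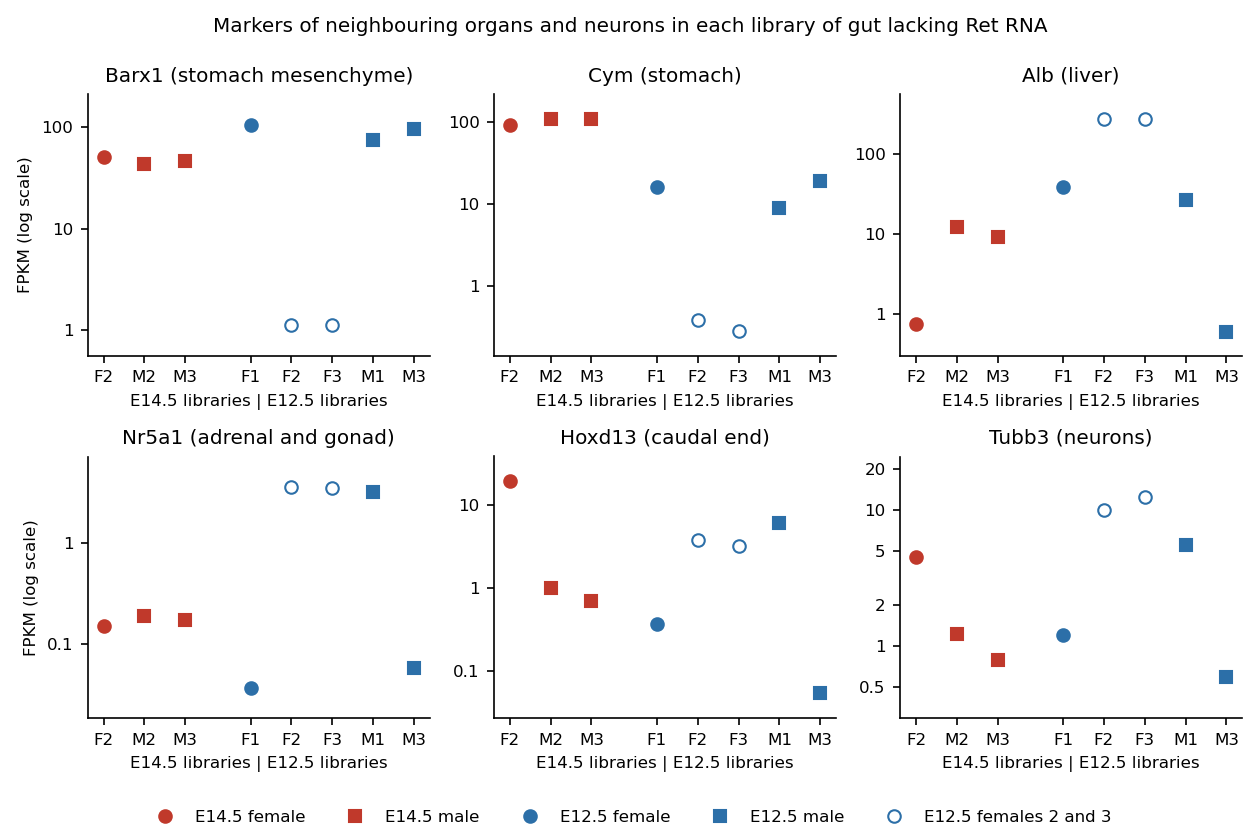
FPKM on a log scale of 6 genes in each of the 8 libraries lacking Ret RNA (F female, M male, with label numbers; E14.5 left, E12.5 right; open circles are E12.5 females 2 and 3). Barx1 is at 1.103 and 1.12 FPKM in the open circles and at 43.3 to 106 FPKM in the other 6 libraries.

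Of the 13306 genes that reached 1 FPKM in at least 3 of the 8 libraries, 4212 (31.7%) changed between the stages at a Benjamini-Hochberg adjusted p under 0.05 in limma. At E14.5, 2760 genes (20.7%) were higher and 1452 (10.9%) lower than at E12.5. The median log2 fold change over all tested genes was 0.04, and 5717 genes had an unadjusted p under 0.05. Past 2-fold, 389 genes (2.92%) were higher and 52 (0.391%) lower at E14.5. The E14.5 values lay wholly above the E12.5 values in 3110 genes (23.4%) and wholly below in 1642 (12.3%). The count was 2461 without E14.5 male 3, 2563 without E14.5 male 2, and 2515 with these males counted as 1 sample. The split of directions depended on the scaling of the libraries. Of the genes called, 65.5% were higher at E14.5 with FPKM as deposited, 88.1% with each library scaled to the same FPKM sum (where the median gene moved by 0.163), 52.5% with median-of-ratios scaling and 47.9% with quantile normalization. Fold changes are on the log2(FPKM + 1) scale throughout, which understates the change of genes with low values. A gene that passed the filter only through its E14.5 values had to be lower at E12.5. In the same way, the filter favoured a fall for a gene that passed it only through its E12.5 values. Counts of members below are therefore descriptions. Each count is to be read beside the 20.7% of all tested genes that rose and the 10.9% that fell.

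**Figure D2:**
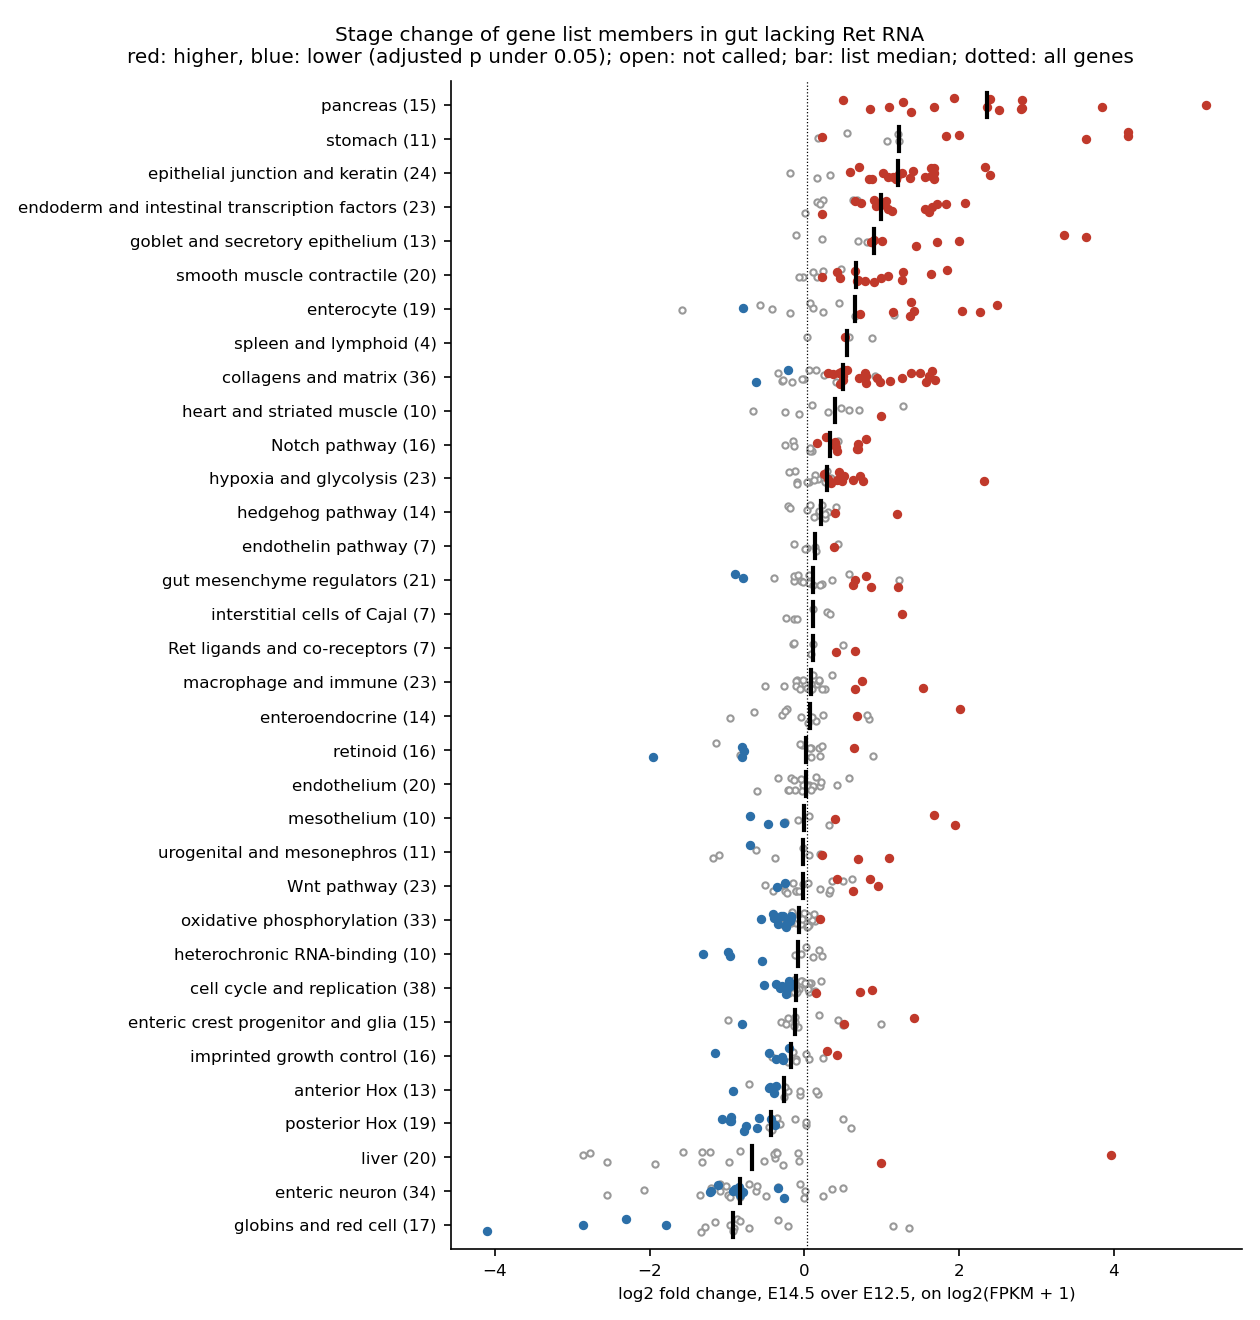
Log2 fold change, E14.5 over E12.5, of each tested member of 34 gene lists (number tested in parentheses). Red is higher and blue lower at E14.5 at adjusted p under 0.05, open is neither, the bar is the list median and the dotted line the median of all genes (0.04); pancreas genes have the highest median (2.37) and globin and red cell genes the lowest (-0.92).

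Genes of the contractile machinery of smooth muscle were higher at E14.5. Of 22 listed genes, 20 were tested, 14 rose and 0 fell, with a median log2 fold change of 0.67, where 20.7% of all tested genes rose and the overall median was 0.04. Without E12.5 females 2 and 3, 12 rose. Myh11, the myosin heavy chain of smooth muscle (chr16:14194527-14291408), had 112, 162 and 168 FPKM at E14.5, against 26.2, 47.6, 54.01, 23.04 and 62.01 FPKM at E12.5 (log2 fold change 1.85, SE 0.331, adjusted p = 0.00372). All E14.5 libraries were above all E12.5 libraries. Actg2, the enteric smooth muscle actin, had 255, 327 and 332 FPKM at E14.5, against 91.7, 139.6, 155, 91.4 and 167 FPKM at E12.5 (log2 fold change 1.27, SE 0.220, adjusted p = 0.00326), again with no overlap. Desmin (Des), the muscle intermediate filament, had 30.04, 39.8 and 41.3 FPKM at E14.5, against 17.5, 16.9, 19.6, 17.3 and 18.9 FPKM at E12.5 (log2 fold change 0.99, SE 0.102, adjusted p = 0.000319). Hspb7, a small heat shock protein of muscle, showed the second largest rise of the list after Myh11 at 1.64, with 4.84 ± 1.05 FPKM at E14.5 and 0.884 ± 0.384 FPKM at E12.5 (SD, n = 3 and 5). Calponin (Cnn1) rose by 1.27, transgelin (Tagln) by 1.09, myosin light chain kinase (Mylk) by 0.90, leiomodin (Lmod1) by 0.79, the regulatory light chain Myl9 by 0.69 and smoothelin (Smtn) by 0.66. Myocd, the myocardin co-activator that drives this set of genes, did not pass the test, with 9.46, 12.7 and 13.3 FPKM at E14.5, against 15.1, 8.98, 8.48, 11.5 and 17.5 FPKM at E12.5, and its groups overlapped. Acta2 missed the threshold, with a log2 fold change of 0.48 and an adjusted p of 0.0645.

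Many smooth muscle promoters carry a CArG box, the site of serum response factor, searched here on both strands by that name as CC, 6 bases of A or T, and GG. Windows from 250 bases before to 50 after the start site (RefSeq, GRCm38.p6) were matched for 10 of the 14 genes that rose. Of these 10, 1 held a CArG box, against 1.63% of all 32851 windows, and it is printed because Myl9 rose with the rest. The window of Myl9 is chr2:156775214-156775513, plus strand, with the box in capitals, its first base 161 before the start site.
Myl9: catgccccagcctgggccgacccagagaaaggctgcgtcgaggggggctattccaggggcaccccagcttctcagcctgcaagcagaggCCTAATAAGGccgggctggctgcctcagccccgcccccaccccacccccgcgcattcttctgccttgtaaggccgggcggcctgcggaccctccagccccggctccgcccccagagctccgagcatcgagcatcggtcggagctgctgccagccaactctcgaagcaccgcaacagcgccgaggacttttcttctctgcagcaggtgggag
The match describes letters in this window and nothing about binding.

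Among 7 listed genes of interstitial cells of Cajal, the pacemaker cells of gut muscle, 1 rose and 0 fell. Thbs4, a thrombospondin, had 12.04, 16.9 and 18.8 FPKM at E14.5, against 4.67, 6.96, 7.92, 4.15 and 6.92 FPKM at E12.5 (log2 fold change 1.26, SE 0.207, adjusted p = 0.00256), with no overlap. Kit, the receptor that defines these cells, had 18.6, 21.1 and 22.5 FPKM at E14.5, against 17.99, 19.3, 19.5, 16.6 and 22.9 FPKM at E12.5 and did not pass (adjusted p = 0.448). Ano1, their chloride channel, and Etv1, a transcription factor, also missed the threshold, with log2 fold changes of -0.13 and 0.30.

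Regulators made by gut mesenchyme moved in both directions, with 5 of 21 tested genes up and 2 down (median 0.11), close to the shares of all tested genes (20.7% and 10.9%). Bmp4, a ligand of the mesenchyme next to the epithelium, had 35.7, 31.9 and 33.8 FPKM at E14.5, against 21.1, 20.98, 21.5, 21.2 and 20.4 FPKM at E12.5 (log2 fold change 0.66, SE 0.0459, adjusted p = 0.000121). The E12.5 libraries lay within 20.4 to 21.5 FPKM, far below the lowest E14.5 library. The Bmp antagonists Grem1 and Noggin (Nog) rose as well, by 1.22 and 0.80, and so did Bmp2 (0.86) and the forkhead factor Foxl1 (0.63). Hand2 and Hand1, basic helix-loop-helix factors of splanchnic mesoderm, fell. Hand2 had 22.98, 24.1 and 21.4 FPKM at E14.5, against 45.9, 36.03, 40.4, 43.5 and 36.7 FPKM at E12.5 (log2 fold change -0.80, SE 0.0856, adjusted p = 0.000365), and Hand1 fell by 0.90 on the log2 scale. Without E12.5 females 2 and 3 the list counted 5 up and 6 down, with a median of -0.20.

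In the hedgehog pathway 2 of 14 genes rose and 0 fell (median 0.21), where 20.7% of all tested genes rose. With libraries scaled to the same FPKM sum 8 rose, and without E12.5 females 2 and 3, 4 rose and 1 fell. Indian hedgehog (Ihh), an endodermal ligand, had 12.2, 14.9 and 15.8 FPKM at E14.5, against 6.56, 3.999, 4.91, 4.98 and 8.68 FPKM at E12.5 (log2 fold change 1.195, SE 0.199, adjusted p = 0.00267), and the co-receptor Cdon rose by 0.40. Sonic hedgehog (Shh) had 17.97, 19.2 and 21.1 FPKM at E14.5, against 15.97, 14.4, 14.7, 12.2 and 21.5 FPKM at E12.5, and its groups overlapped (adjusted p = 0.154). The targets Gli1 and Ptch1 had log2 fold changes of 0.41 and 0.27 and missed the threshold.

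Of 23 tested Wnt pathway genes, 4 rose and 2 fell, close to the shares of all tested genes (20.7% and 10.9%). With libraries scaled to the same FPKM sum 5 rose and 0 fell. The ligand enhancer Rspo2 rose by 0.95, with 2.82, 2.08 and 2.99 FPKM at E14.5, against 0.744, 0.739, 0.755, 1.13 and 1.01 FPKM at E12.5. Its receptors Lgr4 and Lgr5, of which Lgr5 marks intestinal stem cells of the adult, rose by 0.43 and 0.85. The call on Lgr5 was lost in 9 of 23 alternative settings. The antagonist Sfrp1 and the factor Tcf7 fell by 0.26 and 0.36 on the log2 scale. Axin2, a target of canonical Wnt signalling, and Wnt5a, a non-canonical ligand, did not pass, with log2 fold changes of 0.33 and -0.11.

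Notch pathway genes rose in 9 of 16 tested cases and fell in 0 (median 0.34), where 20.7% of all tested genes rose. The receptor Notch1 had 10.4, 9.99 and 10.2 FPKM at E14.5, against 5.15, 6.13, 7.09, 6.28 and 5.26 FPKM at E12.5 (log2 fold change 0.69, SE 0.0922, adjusted p = 0.000983). The ligands Jag2 and Dll1 rose by 0.79 and 0.68, the receptor-modifying glycosyltransferase Lfng by 0.70 and the target Hes1 by 0.43. In each of these 5 genes the groups did not overlap. Atoh1, the factor of the secretory lineage that Notch restrains, was under 1 FPKM in all 8 libraries and was not tested, with 0.362, 0.377 and 0.422 FPKM at E14.5, against 0, 0.0417, 0, 0.00810 and 0.00923 FPKM at E12.5.

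**Figure D3:**
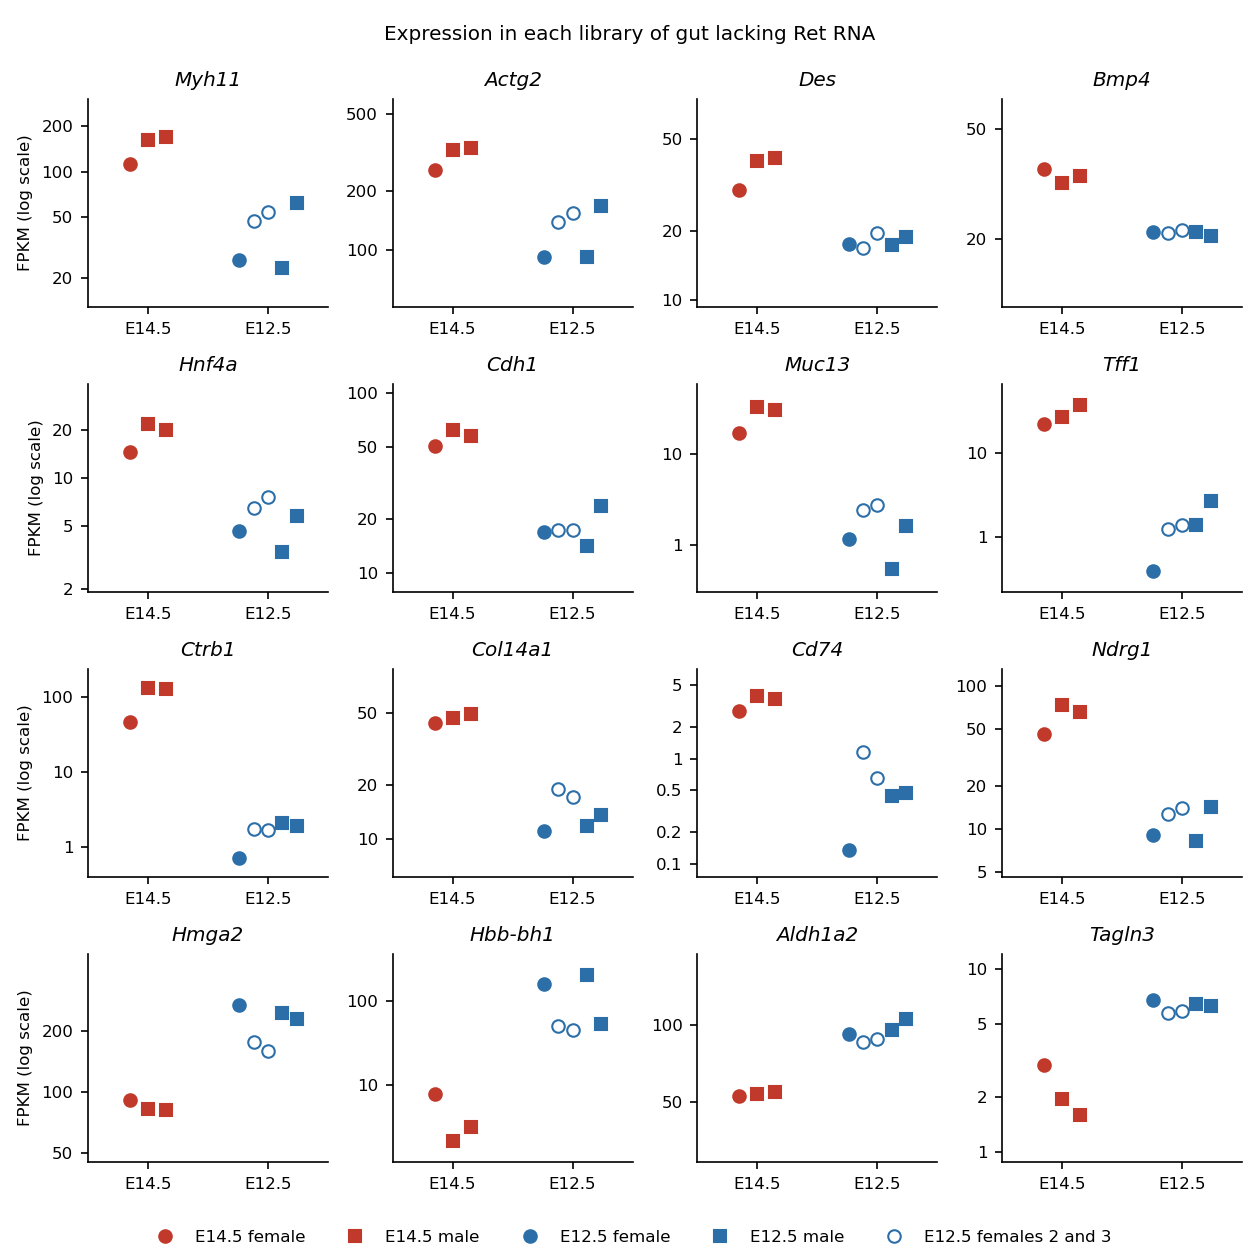
FPKM on a log scale of 16 genes in each library of gut lacking Ret RNA, E14.5 left in red and E12.5 right in blue (circles female, squares male; open circles are E12.5 females 2 and 3). In all 16 genes the E14.5 libraries lie wholly above or, for Hmga2, Hbb-bh1, Aldh1a2 and Tagln3, wholly below the E12.5 libraries.

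The transcription factors of the endoderm and intestine were higher at E14.5 in 16 of 23 tested cases and lower in 0, with a median log2 fold change of 0.99. Hnf4a, which drives enterocyte genes, had 14.6, 21.9 and 20.02 FPKM at E14.5, against 4.65, 6.51, 7.63, 3.43 and 5.76 FPKM at E12.5 (log2 fold change 1.61, SE 0.215, adjusted p = 0.000983). The caudal factor Cdx2, which gives the endoderm its intestinal identity, had 15, 24.1 and 26.3 FPKM at E14.5, against 8.38, 11.3, 11.4, 6.09 and 11.5 FPKM at E12.5 (log2 fold change 1.08, SE 0.233, adjusted p = 0.00854), and its partner Cdx1 rose by 1.83. Elf3 and Ehf, epithelial Ets factors, rose by 2.08 and 1.66, and the Krüppel-like factors Klf5 and Klf4 by 1.72 and 0.93. Ascl2, a factor of intestinal stem cells in the adult, rose by 1.05, at 1.73 ± 0.286 FPKM at E14.5 and 0.313 ± 0.0842 FPKM at E12.5 (SD, n = 3 and 5). It passed the filter only through its E14.5 values and had to rise. Gata4 rose by 0.23, a call lost in 11 of 24 alternative settings. Without E12.5 females 2 and 3, 17 rose.

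Junction proteins and keratins of epithelium rose in 21 of 24 cases, and 0 fell (median 1.21). E-cadherin (Cdh1), the adhesion molecule of epithelia, had 50.5, 62.7 and 58.1 FPKM at E14.5, against 16.97, 17.3, 17.4, 14.2 and 23.7 FPKM at E12.5 (log2 fold change 1.63, SE 0.141, adjusted p = 0.00018), with no overlap. Epcam had 105, 137 and 138 FPKM at E14.5, against 49.2, 46.5, 43.5, 38.4 and 68.4 FPKM at E12.5 (log2 fold change 1.36, SE 0.174, adjusted p = 0.000792), again without overlap. The simple epithelial keratin Krt19 rose by 1.68, the tight junction claudins Cldn3 and Cldn23 by 1.64 and 1.68, the microvillus protein villin (Vil1) by 1.68 and the intestinal cadherin Cdh17 by 2.405. In bulk tissue a larger share of epithelial cells and more RNA per cell cannot be told apart, which holds for every cell type below.

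Genes of absorptive enterocytes were mostly low at both stages. Of 36 listed genes, 19 passed the filter, 8 rose and 1 fell (median 0.66), and without E12.5 females 2 and 3, 11 rose and 1 fell (median 0.87). Fabp2, the intestinal fatty acid binding protein, had 9.25, 13.9 and 9.87 FPKM at E14.5, against 1.22, 2.85, 3.08, 0.889 and 2.09 FPKM at E12.5 (log2 fold change 2.03, SE 0.266, adjusted p = 0.000897). Prap1, a secreted protein of the gut epithelium (chr7:140093396-140097203), had 5.12, 11.5 and 6.92 FPKM at E14.5, against 0.280, 0.787, 0.738, 0.134 and 0.699 FPKM at E12.5 (log2 fold change 2.495, SE 0.244, adjusted p = 0.00026). Neither gene overlapped between the stages, but Prap1 passed the filter only through its E14.5 values, which fixed its direction. Amnionless (Amn), the membrane anchor of the vitamin B12 receptor, rose by 2.27, the glucose transporter Slc5a1 by 1.14, and the brush border peptidases Anpep and Dpp4 by 1.37 and 0.72. Fabp1, the liver-type family member, had 4.81, 14.4 and 9.24 FPKM at E14.5, against 1.85, 7.32, 9.69, 0.926 and 2.28 FPKM at E12.5. Its groups overlapped, and it did not pass (adjusted p = 0.162), but did without E12.5 females 2 and 3 (log2 fold change 1.89, adjusted p = 0.00682). Carbonic anhydrase 4 (Car4) fell by 0.79 on the log2 scale, a call lost in 8 of 19 alternative settings, among them leaving out any 1 E14.5 library. Sucrase-isomaltase (Sis) reached at most 0.00465 FPKM.

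Genes of goblet and other secretory cells rose in 9 of 13 tested cases, and 0 fell (median 0.90), or in 10 without E12.5 females 2 and 3, while 10 of the 23 listed genes were too low to test. The membrane mucin Muc13 (chr16:33794037-33819927) had 16.9, 32.9 and 30.1 FPKM at E14.5, against 1.19, 2.45, 2.79, 0.555 and 1.64 FPKM at E12.5 (log2 fold change 3.36, SE 0.314, adjusted p = 0.000227), so that the lowest E14.5 library was above every E12.5 library. Trefoil factor 3 (Tff3), a peptide of goblet cells, had 4.13, 18.6 and 16.9 FPKM at E14.5, against 2.21, 2.32, 2.82, 3.04 and 3.21 FPKM at E12.5 (log2 fold change 1.72, SE 0.390, adjusted p = 0.0108). Female 2 was the lowest E14.5 library, close to the E12.5 values. Agr2, a disulfide isomerase needed for mucin folding, rose by 1.99, the IgG Fc binding protein Fcgbp by 1.44, the mucin glycosyltransferase Galnt12 by 1.01 and the secretory factor Spdef by 0.87. Muc2, the gel-forming mucin of goblet cells, stayed under 1 FPKM in all 8 libraries, with 0.263, 0.228 and 0.158 FPKM at E14.5, against 0.197, 0.142, 0.173, 0.201 and 0.201 FPKM at E12.5.

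Promoter windows of the same length were searched for TTTAT, a core of CDX sites, and GTTAAT, a core of HNF1 sites, on both strands. Of the 6 matched enterocyte genes that rose, 3 (Prap1, Fabp2 and Dpp4) held TTTAT and 0 held GTTAAT. Of the 5 matched goblet genes that rose, 4 (Muc13, Agr2, Foxa3 and Spdef) held TTTAT and 1 (Muc13) held GTTAAT. Of all 32851 windows, TTTAT stood in 40.0% and GTTAAT in 7.10%. The windows of Prap1 and Muc13 are printed because these were the members of the 2 lists with the largest rise among those matched. They are, with the motif in capitals, Prap1 at chr7:140093146-140093445 (TTTAT as ATAAA, first base 30 before the start site) and, for the 2 start sites of Muc13, chr16:33793787-33794086 (ATAAA, 179 before) and chr16:33794239-33794538 (GTTAAT, 61 before), all on the plus strand of GRCm38.p6 in RefSeq. No ATAAA shown is part of a TATAAA box.
Prap1: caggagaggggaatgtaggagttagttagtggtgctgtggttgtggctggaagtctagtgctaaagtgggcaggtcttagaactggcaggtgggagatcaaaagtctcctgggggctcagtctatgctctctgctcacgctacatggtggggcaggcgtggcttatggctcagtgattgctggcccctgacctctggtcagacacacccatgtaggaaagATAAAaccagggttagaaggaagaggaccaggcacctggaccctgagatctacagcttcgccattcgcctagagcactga
Muc13, first start site: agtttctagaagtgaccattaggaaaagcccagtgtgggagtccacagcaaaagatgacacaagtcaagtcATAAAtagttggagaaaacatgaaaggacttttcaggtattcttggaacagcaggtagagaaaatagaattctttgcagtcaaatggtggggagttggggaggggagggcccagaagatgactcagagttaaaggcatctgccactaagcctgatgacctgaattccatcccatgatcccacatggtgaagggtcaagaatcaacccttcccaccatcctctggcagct
Muc13, other start site: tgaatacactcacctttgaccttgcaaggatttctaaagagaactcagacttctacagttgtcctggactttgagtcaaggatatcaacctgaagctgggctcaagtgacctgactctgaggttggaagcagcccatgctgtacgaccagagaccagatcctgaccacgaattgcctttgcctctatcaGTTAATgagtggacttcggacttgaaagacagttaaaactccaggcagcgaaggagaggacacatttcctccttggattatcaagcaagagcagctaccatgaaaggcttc

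Enteroendocrine genes rose in 2 of 14 tested cases, where 20.7% of all tested genes rose. Neurogenin 3 (Neurog3), which specifies endocrine cells of gut and pancreas, had 6.02, 7.45 and 5.96 FPKM at E14.5, against 0.525, 0.762, 1.04, 0.588 and 1.47 FPKM at E12.5 (log2 fold change 2.01, SE 0.164, adjusted p = 0.00016), with no overlap. Pax6, an endocrine factor, rose by 0.68. Glucagon (Gcg) had 26.9, 29.3 and 25.6 FPKM at E14.5, against 53.02, 12.01, 9.85, 36.8 and 52.1 FPKM at E12.5, with overlap. It did not pass (log2 fold change 0.05), but fell without E12.5 females 2 and 3, by 0.76 on the log2 scale (adjusted p = 0.00588). Chromogranin A (Chga), a protein of endocrine granules that adrenal chromaffin cells also make, had 4.64, 6.24 and 4.88 FPKM at E14.5, against 2.62, 33.96, 39.9, 13.4 and 2.53 FPKM at E12.5, highest in the 3 libraries with Nr5a1 RNA. Ghrelin (Ghrl) and cholecystokinin (Cck) missed the threshold, with log2 fold changes of 0.84 and 0.15.

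Of 22 stomach genes, 11 were tested and 6 rose (median 1.22). Pepsinogen C (Pgc), which passed the filter only through its E14.5 values and so had to rise without overlap, had 3.75, 3.18 and 3.65 FPKM at E14.5. At E12.5 it had 0.106, 0.110, 0.0996, 0.140 and 0.219 FPKM (log2 fold change 1.99, SE 0.0907, adjusted p = 5e-05). Tff1, the trefoil peptide of gastric surface cells, had 22.1, 26.9 and 37.1 FPKM at E14.5, against 0.405, 1.26, 1.41, 1.4 and 2.72 FPKM at E12.5 (log2 fold change 3.64, SE 0.281, adjusted p = 0.000148), without overlap. Cym had 91.7, 110.0 and 109 FPKM at E14.5, against 16.2, 0.379, 0.279, 8.99 and 19.4 FPKM at E12.5 (log2 fold change 4.18, SE 0.974, adjusted p = 0.012), and its log2 fold change was 2.78 without E12.5 females 2 and 3 (adjusted p = 0.000665). Krt5 and Trp63, of the stratified epithelium of the forestomach and oesophagus, rose by 4.18 and 1.83, and Krt5 reached 64.4 FPKM in E14.5 female 2 against 13.4 and 13.5 FPKM in the other E14.5 libraries. Barx1 did not pass with all libraries (log2 fold change 1.22) but fell without E12.5 females 2 and 3, by 0.96 on the log2 scale (adjusted p = 0.0019), and Nkx6-3, a factor of the gastric antrum, had 0.18 with all libraries and -0.45 without those 2 (adjusted p = 0.0212). Without those 2 libraries the list counted 8 up and 2 down (median 0.72).

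Each of the 15 tested pancreas genes rose (median 2.37), of 27 listed. Some passed the filter only through their E14.5 values and had to rise. Without E14.5 female 2, 9 passed it and 8 rose. With no filter 26 were tested, 18 rose and 1 fell (median 0.97). Chymotrypsinogen B (Ctrb1) had 46.7, 133 and 129.5 FPKM at E14.5, against 0.715, 1.74, 1.67, 2.12 and 1.89 FPKM at E12.5 (log2 fold change 5.19, SE 0.344, adjusted p = 0.00011), which was the largest rise among all genes under the naming rule. The lipase relative Pnliprp1 rose by 3.85, the carboxypeptidase Cpa1 by 2.396, colipase (Clps) by 2.81 and insulin 2 (Ins2) by 2.81. Ins2 had 6.89, 8.65 and 7.01 FPKM at E14.5, against 0.196, 0.0950, 0.225, 0.0526 and 0.557 FPKM at E12.5. Pdx1, the factor of pancreas and duodenum, rose by 0.50, but this call was lost in 13 of 23 alternative settings. The list summed to 209.8 to 443 FPKM at E14.5 and 26.0 to 40.7 FPKM at E12.5, and how much pancreas each dissection held was not tested. Reads of pancreatic proteases and amylases can be shared with near-identical gene copies, which leaves their single values uncertain.

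Liver genes rose in 2 of 20 tested cases and fell in 0, with a median of -0.68, or 0.07 without E12.5 females 2 and 3. Cps1, a urea cycle enzyme of liver that intestinal epithelium also makes, had 31.5, 64.7 and 42.1 FPKM at E14.5, against 1.03, 3.06, 2.96, 0.748 and 2.54 FPKM at E12.5 (log2 fold change 3.97, SE 0.338, adjusted p = 0.000173), without overlap. Albumin and alpha-fetoprotein (Afp) did not pass, with log2 fold changes of -2.77 and -2.55.

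Matrix genes of mesenchyme rose in 23 of 36 cases and fell in 2 (median 0.50), or in 25 and 2 without E12.5 females 2 and 3. Type I collagen (Col1a1) had 376, 427 and 461 FPKM at E14.5, against 134, 241, 286, 199.5 and 152 FPKM at E12.5 (log2 fold change 1.103, SE 0.232, adjusted p = 0.00775). Type III collagen (Col3a1) had 617, 695 and 749 FPKM at E14.5, against 318, 394, 389.8, 339.5 and 339.7 FPKM at E12.5 (log2 fold change 0.95, SE 0.0892, adjusted p = 0.000233). Neither overlapped between the stages. Col14a1, a collagen that associates with fibrils, rose by 1.65, the small proteoglycans osteoglycin (Ogn) and decorin (Dcn) by 1.69 and 1.498, Col6a1 by 1.62 and the laminin chain Lama2 by 0.78. Col9a1 and the embryonic laminin chain Lama1 fell by 0.63 and 0.21 on the log2 scale, and the call on Lama1 was lost in 13 of 23 settings. Elastin (Eln) had 89.5, 62.3 and 64.1 FPKM at E14.5, against 11.8, 107, 132, 35.3 and 11.2 FPKM at E12.5, highest in E12.5 females 2 and 3. It did not pass with all libraries, but rose without those 2 (log2 fold change 2.02, adjusted p = 0.0088).

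No listed endothelial gene was called among 20 tested (median 0.02), and without E12.5 females 2 and 3, 3 rose. Pecam1, an adhesion molecule of endothelium, had 26, 28.1 and 27.3 FPKM at E14.5, against 22.6, 28.2, 29.7, 28.2 and 22.2 FPKM at E12.5, and the vascular receptor Kdr a log2 fold change of -0.17. Macrophage and immune genes rose in 3 of 23 tested cases (median 0.09), where 20.7% of all tested genes rose. Without E12.5 females 2 and 3, 10 rose (median 0.35). Cd74, the invariant chain of MHC class II, had 2.79, 3.95 and 3.67 FPKM at E14.5, against 0.136, 1.16, 0.661, 0.440 and 0.470 FPKM at E12.5 (log2 fold change 1.53, SE 0.195, adjusted p = 0.000789), without overlap. The macrophage transglutaminase F13a1 rose by 0.74. The receptor Csf1r had 7.95, 8.797 and 9.31 FPKM at E14.5, against 6.43, 9.36, 9.83, 7.58 and 5.79 FPKM at E12.5, with overlap (adjusted p = 0.46).

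Embryonic globins fell. Hbb-bh1, an embryonic beta-like globin (chr7:103841638-103843162), had 7.89, 2.22 and 3.17 FPKM at E14.5, against 159, 50.6, 45.7, 204 and 53.04 FPKM at E12.5 (log2 fold change -4.099, SE 0.570, adjusted p = 0.00117). The highest E14.5 library was below the lowest E12.5 library. Hbb-y fell by 2.30 and Hba-x, the embryonic alpha-like globin, by 2.86 on the log2 scale, both without overlap. The adult globins Hbb-b1 and Hbb-b2 did not pass, with log2 fold changes of -0.87 and 1.35, and Hbb-b2 rose without E12.5 females 2 and 3 (2.47, adjusted p = 0.00113). Slc4a1, the anion exchanger of red cells, fell by 1.79, a call lost in 14 of 24 settings. Over the list of 17 tested genes 4 fell and 0 rose (median -0.92), and without E12.5 females 2 and 3, 6 of 12 fell and 2 rose. Globin copies are near identical, so how reads were divided among them is uncertain, and the amount of blood in each library was not tested.

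Summed over the enteric neuron list, gut lacking Ret RNA had 130.1 to 177 FPKM at E14.5 and 177 to 388 FPKM at E12.5, against 317 to 670.0 and 415 to 513 FPKM at the same stages in wild type. The highest sums without Ret RNA were those of E12.5 females 2 and 3. The neuronal tubulin Tubb3 had 4.54, 1.23 and 0.786 FPKM at E14.5, against 1.22, 10.1, 12.4, 5.59 and 0.593 FPKM at E12.5, with means of 44.9 and 30.6 FPKM at the same stages in wild type. It was highest in E12.5 females 2 and 3, and its groups overlapped (adjusted p = 0.409). Over the enteric neuron list, 34 of 44 genes were tested, 10 fell and 0 rose, with a median log2 fold change of -0.84, where 10.9% of all tested genes fell. Without E12.5 females 2 and 3, 22 genes were tested, 7 fell and 1 rose (median -0.36). Tagln3, a transgelin of neurons, had 2.97, 1.95 and 1.58 FPKM at E14.5, against 6.74, 5.74, 5.91, 6.45 and 6.29 FPKM at E12.5 (log2 fold change -1.21, SE 0.128, adjusted p = 0.000348), with no overlap. Crmp1, a cytosolic phosphoprotein of growing axons, had 9.14, 6.203 and 5.896 FPKM at E14.5, against 22.9, 12.4, 13.7, 20.9 and 20.3 FPKM at E12.5 (log2 fold change -1.22, SE 0.218, adjusted p = 0.00366), also without overlap. Gap43, a growth cone protein, fell by 1.11, synuclein gamma (Sncg) by 0.93, the peptide precursor Cartpt by 0.90 and the RNA-binding protein Elavl2 by 0.83 on the log2 scale. Hand2, N-cadherin (Cdh2), Ncam1 and Map2, which fell by 0.80, 0.84, 0.34 and 0.27, are also made by cells that are not neurons. The noradrenaline enzymes Th (18.1, 19.8 and 8.48 FPKM) and Dbh (27.8, 32.7 and 12.3 FPKM) were highest in the 3 E12.5 libraries with Nr5a1 RNA. Th and Dbh also mark adrenal and sympathetic cells, and their part in the neuronal values was not tested. Nos1, of inhibitory enteric motor neurons, reached at most 0.105 FPKM.

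Of 15 tested genes of crest progenitors and enteric glia, 2 rose and 1 fell (median -0.12). Without E12.5 females 2 and 3, 12 were tested, 4 rose and 2 fell (median 0.31). Erbb3, the neuregulin receptor of glial precursors that epithelium also carries, had 11.8, 13.6 and 12.8 FPKM at E14.5, against 3.88, 3.71, 4.45, 3.88 and 4.86 FPKM at E12.5 (log2 fold change 1.42, SE 0.0860, adjusted p = 0.0001), and its E14.5 values were wholly above those of E12.5. Fabp7, a lipid-binding protein of glial precursors, fell by 0.81. Sox10, the factor of crest and glia, had 2.51, 1.37 and 1.77 FPKM at E14.5, against 1.15, 2.78, 3.11, 3.11 and 1.07 FPKM at E12.5, and its groups overlapped (adjusted p = 0.765). Zeb2, a factor of neural crest and mesenchyme, rose by 0.51, a call lost in 12 of 24 settings.

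Of 9 listed ligands and co-receptors of Ret, 7 passed the filter and 2 stayed under 1 FPKM in all 8 libraries, 1 of them at 0 throughout. Gdnf had 7.83, 8.91 and 8.85 FPKM at E14.5, against 12.3, 7.78, 7.57, 8.68 and 12.3 FPKM at E12.5, and the co-receptor Gfra1 had 18.1, 19.9 and 17.8 FPKM at E14.5, against 28.1, 13.4, 12.8, 23.2 and 32.6 FPKM at E12.5. Both overlapped between the stages and did not pass (log2 fold changes -0.15 and -0.14), but Gfra1 fell without E12.5 females 2 and 3, by 0.55 (adjusted p = 0.00995). The related ligands artemin (Artn) and neurturin (Nrtn) rose by 0.65 and 0.41, and the call on Nrtn was lost in 18 of 23 settings. Endothelin 3 (Edn3) and its receptor Ednrb, a pathway also needed for colonisation by crest cells, did not pass, with log2 fold changes of -0.14 and 0.44, while Ednrb rose without E12.5 females 2 and 3 (0.59, adjusted p = 0.0219). Of 7 endothelin pathway genes 1 rose, Edn2, by 0.38.

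Cell cycle and replication genes were lower in 10 of 38 cases and higher in 3 (median -0.11), but with libraries scaled to the same FPKM sum 3 were lower and 7 higher (median 0.02), and without E12.5 females 2 and 3, 13 were lower and 3 higher. Rrm2, a subunit of ribonucleotide reductase, had 49.2, 49.6 and 50.6 FPKM at E14.5, against 77.2, 79.4, 71.2, 65.1 and 66.9 FPKM at E12.5 (log2 fold change -0.52, SE 0.0689, adjusted p = 0.000955), with no overlap. Cyclin B1 (Ccnb1) fell by 0.29 and the inhibitor Cdkn1c by 0.37 on the log2 scale, while the inhibitors Cdkn1a and Cdkn2c rose by 0.72 and 0.87. Mki67, which is made by cycling cells, had 49.3, 54.5 and 52.9 FPKM at E14.5, against 53.5, 50.9, 46.8, 48.5 and 46.4 FPKM at E12.5, and did not pass.

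Heterochronic genes, which mark early developmental time, fell in 4 of 10 tested cases and rose in 0, although with libraries scaled to the same FPKM sum 4 fell and 2 rose. Hmga2, a chromatin protein of embryonic cells and a target of let-7 (chr10:120361275-120476935), had 90.7, 82.4 and 80.97 FPKM at E14.5, against 269, 176, 159, 246 and 229.6 FPKM at E12.5 (log2 fold change -1.31, SE 0.165, adjusted p = 0.000747). The highest E14.5 library was far below the lowest E12.5 library. Lin28b and Lin28a, which block let-7 processing, fell by 0.97 and 0.98 on the log2 scale. Lin28b had 0.620, 0.598 and 0.443 FPKM at E14.5, against 2.1, 2.58, 2.15, 1.83 and 1.57 FPKM at E12.5, again with no overlap. It passed the filter only through its E12.5 values, which favoured this direction. Igf2bp1, an RNA-binding protein of the same circuit, fell by 0.54.

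Imprinted growth genes fell in 6 of 16 tested cases and rose in 2 (7 and 3 without E12.5 females 2 and 3). Of all tested genes 10.9% fell and 20.7% rose. Peg10, which is expressed from the paternal allele, had 33.5, 33.5 and 29.3 FPKM at E14.5, against 70.2, 80.8, 78.9, 76.1 and 59.2 FPKM at E12.5 (log2 fold change -1.16, SE 0.102, adjusted p = 0.000187), with no overlap. The amino acid transporter Slc38a4 fell by 0.45. The non-coding RNAs H19 and Meg3 rose by 0.29 and 0.42. Igf2 had 815, 820.1 and 801 FPKM at E14.5, against 764, 778, 855, 872 and 736 FPKM at E12.5, with overlap, and did not pass (adjusted p = 0.807).

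Genes of oxidative phosphorylation were lower in 11 of 33 cases and higher in 1, but the direction turned with the scaling. With libraries scaled to the same FPKM sum 8 were higher and 4 lower, and with quantile normalization 5 were higher and 3 lower. Cox7a2, a cytochrome oxidase subunit, had 81.8, 75.8 and 70.9 FPKM at E14.5, against 99.9, 99.6, 102, 98.2 and 98.5 FPKM at E12.5 (log2 fold change -0.39, SE 0.0488, adjusted p = 0.000755). Genes of glycolysis and hypoxia rose in 11 of 23 tested cases and fell in 0 (median 0.30), and in 14 and 1 without E12.5 females 2 and 3. Ndrg1, a gene induced by hypoxia and by differentiation, had 45.9, 73.9 and 66.2 FPKM at E14.5, against 9.097, 12.7, 13.96, 8.24 and 14.1 FPKM at E12.5 (log2 fold change 2.32, SE 0.209, adjusted p = 0.000206), without overlap. Pdk1, the kinase that turns pyruvate away from mitochondria, rose by 0.72, the phosphofructokinase Pfkl by 0.52, Vegfa by 0.34 and lactate dehydrogenase (Ldha) by 0.45.

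Hox genes, which pattern the gut along its length, were lower where they were called. Of 13 tested anterior Hox genes 5 fell and 0 rose (median -0.26), and of 19 tested posterior Hox genes 10 fell and 0 rose (median -0.43). Without E12.5 females 2 and 3, 7 anterior and 8 posterior Hox genes fell and 0 rose. Hoxc4 had 8.099, 8.94 and 8.901 FPKM at E14.5, against 11.3, 10.7, 10.8, 11.6 and 13.01 FPKM at E12.5 (log2 fold change -0.37, SE 0.0697, adjusted p = 0.00467), and Hoxd8 had 2.79, 3.18 and 3.59 FPKM at E14.5, against 4.49, 6.61, 6.11, 4.83 and 4.67 FPKM at E12.5 (log2 fold change -0.59, SE 0.125, adjusted p = 0.00802). Neither overlapped. Hoxd3, Hoxc8 and Hoxc10 fell by 0.92, 0.96 and 1.07 on the log2 scale, and Hoxc8 missed the threshold without E12.5 females 2 and 3 (adjusted p = 0.0579). The hindgut genes Hoxd13 and Hoxa13 were called in neither direction. Which lengths of gut the libraries held was not tested, and Barx1 and Hoxd13 above differ between libraries of 1 stage.

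In retinoid signalling, 4 of 16 tested genes fell and 1 rose, or 3 and 2 without E12.5 females 2 and 3. Of all tested genes 10.9% fell and 20.7% rose. Aldh1a2, which makes retinoic acid, had 52.8, 53.9 and 54.8 FPKM at E14.5, against 91.6, 85.9, 87.9, 94.96 and 105 FPKM at E12.5 (log2 fold change -0.78, SE 0.0640, adjusted p = 0.000166), with no overlap. The retinol receptor Stra6 fell by 0.81. Crabp1 fell by 1.95, with 49.7, 16.3 and 16.6 FPKM at E14.5, against 50.3, 122, 157, 179 and 44.8 FPKM at E12.5, but its groups overlapped and the call was lost without E12.5 females 2 and 3 (adjusted p = 0.0807). The receptor Rarg rose by 0.64.

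In the mesothelium, the lining of the gut wall, 3 of 10 tested genes rose and 3 fell. Mesothelin (Msln) had 5.11, 5.89 and 5.33 FPKM at E14.5, against 0.601, 0.494, 0.659, 0.552 and 1.11 FPKM at E12.5 (log2 fold change 1.95, SE 0.121, adjusted p = 0.0001), without overlap, while the mesothelial factors Wt1 and Bnc1 fell by 0.71 and 0.47, and Upk3b was not called. Wt1, which gonad and kidney also make, missed the threshold without E12.5 females 2 and 3 (adjusted p = 0.0815). Of 11 tested urogenital genes 3 rose, among them Osr1 (0.69) and Sall1 (1.09), and 1, Wt1, fell. Among 10 tested heart and striated muscle genes, cardiac troponin T (Tnnt2) rose by 0.99, and Actc1 and Myl7 did not pass. Of 4 tested spleen and lymphoid genes 1 rose, the addressin Madcam1 (0.52). Tlx1, the spleen factor, had 4.68, 3.54 and 4.05 FPKM at E14.5, against 4.06, 0.101, 0.119, 3.59 and 4.58 FPKM at E12.5.

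Several of the largest changes lay outside these lists. The 12 largest rises and falls were taken among called genes whose groups did not overlap and whose higher group averaged 5 FPKM or more. Adamdec1, a secreted metalloprotease of gut, had 46.7, 80.2 and 99.7 FPKM at E14.5, against 0.812, 5.65, 4.67, 0.813 and 4.72 FPKM at E12.5 (log2 fold change 4.298, SE 0.510, adjusted p = 0.000557). Krt15, a basal keratin, rose by 4.27, and Lypd8 and Lgals4, a defence protein and a galectin of the gut epithelium, by 3.16 and 3.07. Tm4sf20, a tetraspan membrane protein, rose by 2.92. Among the falls, Hsd11b2, which inactivates glucocorticoids, had 3.94, 3.301 and 3.302 FPKM at E14.5, against 18.1, 8.76, 9.39, 19.4 and 10.8 FPKM at E12.5 (log2 fold change -1.59, SE 0.255, adjusted p = 0.00229). The carbonic anhydrase Car14 fell by 1.36, the ankyrin repeat protein Asb4 by 1.29, neuronatin (Nnat), an imprinted membrane protein, by 1.24 and Fndc3c1 by 1.09 on the log2 scale.

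Some calls rested on single libraries. Those on Tff3, F13a1, H19, Meg3, Ldha, Artn, Lin28a, Stra6, Tcf7, Col9a1 and Bnc1 were lost without E14.5 male 2 and also without E14.5 male 3. The calls on Rarg, Madcam1, Fabp7 and Agr2 were lost without E14.5 male 3, and those on Sfrp1, Spdef and Cdkn2c without E14.5 male 2. The calls on Sall1, Rarg and Hoxd3 were lost without E12.5 female 1, and the call on Edn2 without E12.5 male 1.

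The last comparison asked whether the change between the stages differed from that of wild-type gut, as the interaction of stage and genotype. Wild-type gut of 6 libraries at E14.5 and 6 at E12.5, counted as 5 because females 1 and 2 differed by 1.085 times the counting noise with 0.712% of genes beyond 3 SD, changed in 8449 of 14088 tested genes (60.0%), with 4439 higher (31.5%) and 4010 lower (28.5%) at E14.5. In the same fit gut lacking Ret RNA changed in 3740 of 14088 genes. Its groups held fewer libraries, so the 2 counts also differ in power. The difference between the 2 stage changes was called in 2801 genes (19.9%), 1699 positive (12.1%) and 1102 negative (7.82%), where positive means a stage change that was more upward in gut lacking Ret RNA. The median difference was 0.01, and 4981 genes had an unadjusted p under 0.05. Of the genes called, 60.7% were positive with FPKM as deposited, 90.8% with libraries scaled to the same FPKM sum, 69.2% with quantile normalization and 47.2% with median-of-ratios scaling. The count was 1426 without E12.5 females 2 and 3, 1688 without E14.5 female 2, 1728 without E14.5 male 3, 1735 without E12.5 female 3, and 2 among males only (2348 at an unadjusted p under 0.05). Past 2-fold, 19 genes were positive and 204 negative. The list counts of differences below were made with FPKM as deposited and the libraries of this fit, and not under the alternatives.

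Markers of neighbouring organs also differed between the wild-type libraries. E12.5 females 1 and 2 held Xist at 49.1 and 52.2 FPKM and the Y-linked Ddx3y at 4.91 and 4.98 FPKM, so markers of both sexes were present in libraries labelled female. Stomach genes summed to 26.0 to 439 FPKM in E14.5 wild type and 18.04 to 256 FPKM in E12.5 wild type. Pancreas genes summed to 209.8 to 443 FPKM in E14.5 gut lacking Ret RNA and 393 to 3425 FPKM in E14.5 wild type. Liver genes reached 3853 FPKM and heart genes 4082 FPKM in single E14.5 wild-type libraries, against at most 277 and 92.4 FPKM in E14.5 gut lacking Ret RNA. The part of these organs in the differences was not tested.

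**Figure D4:**
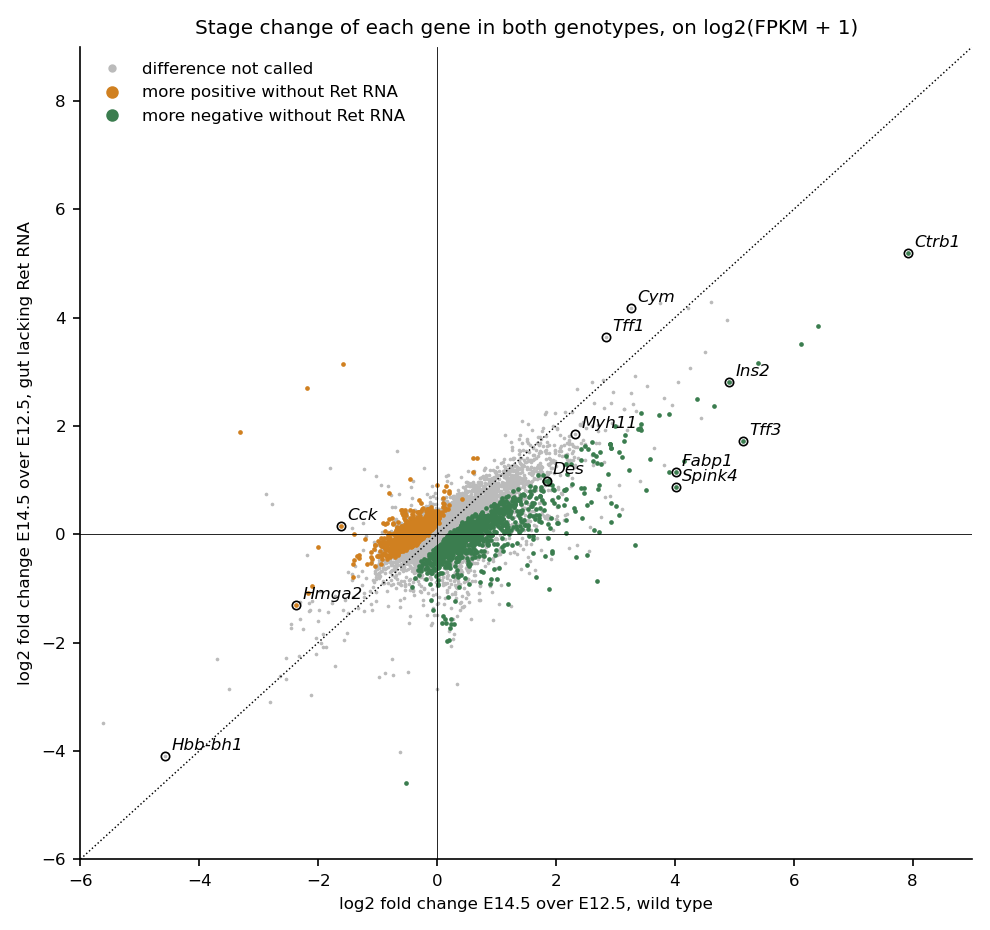
Log2 fold change, E14.5 over E12.5, in gut lacking Ret RNA (vertical) against that in wild type (horizontal), with 1 point per gene tested; orange and green points have a called positive or negative difference. Ctrb1, at 5.19 without Ret RNA and 7.92 in wild type, is the gene farthest to the right.

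Called differences were negative in the enterocyte list and in the goblet and secretory list, while the enteroendocrine list had 2 negative ones and 1 positive one, Cck. In the enterocyte list 12 of 28 tested genes had a negative difference and 0 a positive one, where 7.82% of all tested genes were negative. Fabp1 averaged 9.502 ± 4.83 FPKM at E14.5 and 4.41 ± 3.86 FPKM at E12.5 in gut lacking Ret RNA, against 43.8 ± 29.3 and 1.3 ± 0.447 FPKM at the same stages in wild type (SD, n = 3, 5, 6 and 5; difference -2.86, SE 0.753, adjusted p = 0.0155). Adh1, an alcohol dehydrogenase of liver and gut, averaged 1.98 ± 0.178 FPKM at E14.5 and 3.16 ± 2.82 FPKM at E12.5 in gut lacking Ret RNA, against 41.4 ± 52.1 and 1.95 ± 2.44 FPKM at the same stages in wild type (difference -3.53, SE 1.04, adjusted p = 0.0263). Fabp2 and Prap1 rose in both genotypes, by 2.03 and 2.495 without Ret RNA and by 3.43 and 4.38 in wild type, and both differences were called (-1.396 and -1.89). In the goblet and secretory list 8 of 19 tested genes had a negative difference. Tff3 averaged 13.2 ± 7.899 FPKM at E14.5 and 2.72 ± 0.438 FPKM at E12.5 in gut lacking Ret RNA, against 92.03 ± 48.3 and 1.67 ± 1.71 FPKM at the same stages in wild type (difference -3.43, SE 0.600, adjusted p = 0.00324). Spink4, a goblet cell protease inhibitor, averaged 1.37 ± 1.71 FPKM at E14.5 and 0.113 ± 0.164 FPKM at E12.5 in gut lacking Ret RNA, against 19.7 ± 12.4 and 0.0816 ± 0.0473 FPKM at the same stages in wild type (difference -3.14, SE 0.580, adjusted p = 0.00352). For both genes every E14.5 library lacking Ret RNA was below every E14.5 wild-type library. The 3 E14.5 libraries labelled null that held Ret RNA, which took no part in the fit, had 8.86, 18.3 and 23.9 FPKM of Tff3, 0.691, 2.39 and 1.37 FPKM of Spink4 and 8.77, 7.53 and 11.3 FPKM of Fabp1, also below every E14.5 wild-type library.

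Other epithelial genes had differences that did not pass. For Muc13, Hnf4a, Cdx2 and Cdh1 the differences were -1.14, -0.71, -0.65 and -0.15, none of them called, which does not show that the stage changes were equal. Cdx1 was called, at -1.32. In the pancreas list 9 of 23 tested genes had a negative difference, and Ins2 averaged 7.52 ± 0.981 FPKM at E14.5 and 0.225 ± 0.199 FPKM at E12.5 in gut lacking Ret RNA, against 42.9 ± 33.9 and 0.143 ± 0.0961 FPKM at the same stages in wild type (difference -2.12, SE 0.571, adjusted p = 0.0176).

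Genes of neurons and blood differed as well. In the enteric neuron list 10 of 42 tested genes had a negative difference and 0 a positive one. Neuropeptide Y (Npy) averaged 0.772 ± 0.894 FPKM at E14.5 and 2.77 ± 2.23 FPKM at E12.5 in gut lacking Ret RNA, against 8.604 ± 8.72 and 0.933 ± 0.304 FPKM at the same stages in wild type (difference -2.88, SE 0.777, adjusted p = 0.0174). Tagln3 fell without Ret RNA (-1.21) and had a stage change of -0.11 in wild type (difference -1.101). The 3 E14.5 libraries labelled null that held Ret RNA had 12.6, 15.3 and 12.3 FPKM of Tagln3, inside the range of E14.5 wild type (6.35 to 16.1 FPKM). Of 20 tested crest and glial genes 2 had a positive difference, among them Erbb3 (0.75), and 1 a negative one, Fabp7 (-1.28). The adult globins Hbb-b1 and Hbb-b2 had differences of -3.56 and -2.804. Macrophage and immune genes had 11 negative differences of 26 tested, among them the complement chain C1qa (-0.99), and 1 positive one.

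Among genes of mesenchyme, Pdgfra and Ptch1 had positive differences, while 2 of 21 gut mesenchyme regulators and 0 of 25 Wnt pathway genes were positive, where 12.1% of all tested genes were. The receptor Pdgfra averaged 45.9 ± 6.71 FPKM at E14.5 and 60.9 ± 12.2 FPKM at E12.5 in gut lacking Ret RNA, against 27.4 ± 5.72 and 69.5 ± 11.3 FPKM at the same stages in wild type (difference 0.93, SE 0.234, adjusted p = 0.0126). The hedgehog receptor and target Ptch1 averaged 32.3 ± 3.22 FPKM at E14.5 and 27.1 ± 6.37 FPKM at E12.5 in gut lacking Ret RNA, against 19.01 ± 2.86 and 28.02 ± 3.56 FPKM at the same stages in wild type (difference 0.81, SE 0.206, adjusted p = 0.0132). Of 14 hedgehog pathway genes 3 were positive, Ptch1, the transducer Smo and the factor Gli3, and 0 negative. Of 9 tested heterochronic genes 4 had positive differences and 0 negative ones. Hmga2 averaged 84.7 ± 5.28 FPKM at E14.5 and 216 ± 46.7 FPKM at E12.5 in gut lacking Ret RNA, against 46.9 ± 10.01 and 242 ± 15.7 FPKM at the same stages in wild type (difference 1.06, SE 0.243, adjusted p = 0.00827), and Igf2bp1 had a difference of 0.40. In smooth muscle Des alone was called (-0.85), with 0.99 without Ret RNA and 1.84 in wild type. Over the 20 tested smooth muscle genes the median difference was -0.50, with median stage changes of 0.67 without Ret RNA and 1.21 in wild type. The absence of other calls does not show that these stage changes were equal. In oxidative phosphorylation 15 differences of 33 genes were negative, with Cox7a2 at -0.53 and Ndufa2 at -0.56. In glycolysis 11 of 23 tested were negative, with Ldha at -0.55 and Pgk1 at -0.39, where 7.82% of all tested genes were negative. These 2 counts hold for FPKM as deposited. With libraries scaled to the same FPKM sum, the median difference of all genes was 0.231 and 90.8% of called differences were positive. The 2 lists were not recounted with that scaling.

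**Figure D5:**
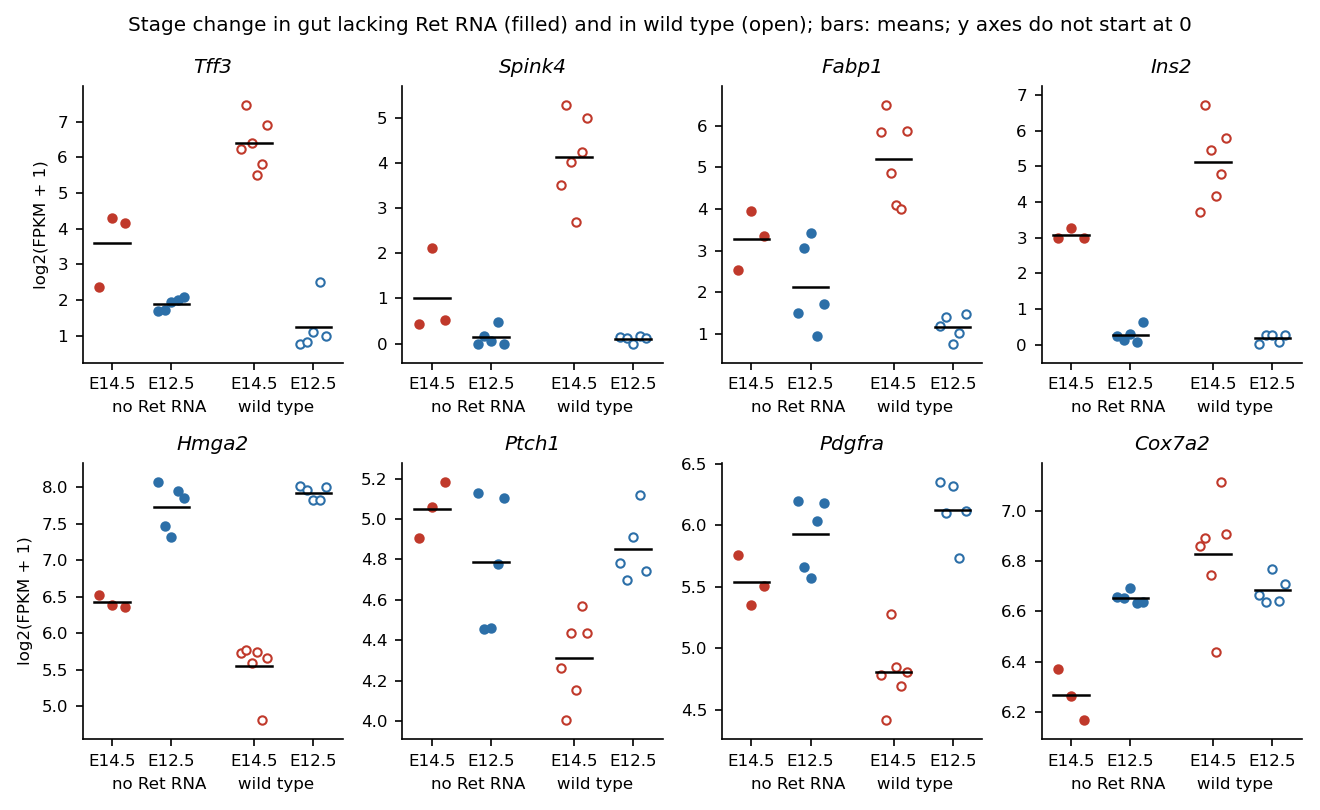
Log2(FPKM + 1) of 8 genes in each library of gut lacking Ret RNA (filled, left) and wild type (open, right), E14.5 left of E12.5 in each; bars are group means and the vertical axes do not start at 0. Tff3, Spink4, Fabp1, Ins2 and Cox7a2 have negative and Hmga2, Ptch1 and Pdgfra positive differences between the stage changes.

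Among genes outside the lists, the cell surface ligand Ulbp1 had a difference of 1.48, with 5.08 ± 0.960 FPKM at E14.5 and 2.03 ± 0.616 FPKM at E12.5 in gut lacking Ret RNA, against 1.68 ± 0.757 and 2.68 ± 1.004 FPKM at the same stages in wild type. The transcription factors Isl2 and Zfhx4 differed by 1.39 and 1.13. The call was lost in 29 of 36 alternatives for N4bp2, 21 for Hbb-b2, 19 for Igf2bp1, 15 for Cdx1, 14 for Fabp2 and for Tmem200a, 9 for Hbb-b1 and 7 for Adh1 and for Cdkn1a. Of the 47 named differences called, 0 kept their call under every alternative, which included the fit of males only that called 2 genes in all.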

How the data were processed

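Polyadenylated RNA was sequenced, and the authors deposited 1 gene-level FPKM value with an interval per gene and library, per the file headers. Picard, TopHat2, Cufflinks, Cuffdiff and the mm10 genome are named in the submitters' processing notes, without versions. Each file held 23847 entries, and 325 entries without an OK status in a compared library were left out. Counts were not used here, so depth was read from the width of the intervals.

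FPKM as deposited was put on the log2(FPKM + 1) scale and tested with limma 3.58.1 in R 4.3.3 (empirical Bayes with a mean-variance trend, two-sided, Benjamini-Hochberg over all tested genes). A gene was tested where 3 or more samples reached 1 FPKM, and an adjusted p under 0.05 was called. The stage fit held the 8 libraries lacking Ret RNA. The fit of the difference added wild type at both stages, with E12.5 wild-type libraries labelled female 1 and 2 averaged, since their spread was 1.085 times the counting noise (limit 1.1) and 0.712% of genes lay beyond 3 SD of it (limit 1%). The scripts were tested on simulated data. Plots were drawn with matplotlib 3.10.9, and tables were made in pandas 2.3.3 with numpy 2.4.6 under Python 3.11.15. Promoter windows are from RefSeq, GRCm38.p6.

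Libraries and the 34 gene lists were chosen with earlier results of these data known. Named genes were Ret and Tubb3, the 12 largest rises and falls, lead genes and the 4 smallest p-values of each list, members called against their list, and the 8 largest differences of each sign. A few members counted in the lists are not reported here by name. Alternatives changed the pseudocount (0.1, 0.5), filter (none, 5 FPKM), scaling, sex term, replicate block, variance prior, call rule and libraries.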

Additional observations from a re-analysis of the deposited data

Results flagged for a closer look

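Among 223 genes checked for a library far from the other 4 at E12.5 in gut lacking Ret RNA, 4 had 1, where chance gives about 1 in 20. The secretory factor Atoh1 stood at 0.0417 FPKM in female 2 against 0 to 0.00923 FPKM in the others, and the stomach gene Gkn1 at 0.0168 FPKM in male 3 against 0 in the others, both near the limit of detection. The Notch ligand Dll1 stood at 5.71 FPKM in male 3 against 3.54 to 3.90 FPKM, and mesothelin (Msln) at 1.11 FPKM in male 3 against 0.494 to 0.659 FPKM.

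The 34 genes listed next had a called difference between the stage changes of gut lacking Ret RNA and wild type, by the interaction term of limma. Genes above whose difference was not called, such as Muc13 and Hnf4a, were not marked for this check. It is therefore a list of calls already made and not a further test. The differences (log2, lacking Ret RNA minus wild type) that were negative were, for products of epithelium, liver and pancreas, Adh1 -3.53, Tff3 -3.43, Spink4 -3.14, Aadac -2.90, Fabp1 -2.86, Ins2 -2.12, Prap1 -1.89, Fabp2 -1.40 and Cdx1 -1.32. For blood and macrophages they were Hbb-b1 -3.56, Hbb-b2 -2.80 and C1qa -0.99, and for neurons and glia Npy -2.88, Fabp7 -1.28 and Tagln3 -1.101. Des was at -0.85, Cdkn1a at -0.74, Ndufa2 at -0.56, Ldha at -0.55, Cox7a2 at -0.53 and Pgk1 at -0.39. Positive differences were Cck 1.76, Ulbp1 1.48, Isl2 1.39, Zfhx4 1.13, Samd5 1.11, Tmem200a 1.105, Fndc3c1 1.09, N4bp2 1.07, Hmga2 1.06, Pdgfra 0.93, Ptch1 0.81, Erbb3 0.75 and Igf2bp1 0.40. Adjusted p-values of these 34 ran from 0.00324 (Tff3) to 0.0475 (N4bp2). The 34 are not all the called differences, since 47 named genes had one, and Smo and Gli3 above had positive ones.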

How the results depend on the processing

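Of 4212 genes changed between the stages, 0 were called with a replicate block on the label numbers (2608 at an unadjusted p under 0.05), 2515 with E14.5 males 2 and 3 counted as 1 sample and 441 with a 2-fold limit added. Leaving out 1 library gave 2461 (without E14.5 male 3) to 4471 genes, with 2563 without E14.5 male 2. The stage fit with the replicate block left 1 residual degree of freedom, so its count of 0 says little about the genes. Only 2 pairs share a sex and number across the stages. Their correlations of deviations were 0.05 and 0.147, against -0.169 to 0.115 for other pairs. So few pairs cannot show whether the label numbers paired the libraries. For the difference from wild type (2801 genes) the counts were 5678 with libraries scaled to the same FPKM sum, 2 with males only, 1789 with E14.5 males 2 and 3 counted as 1 sample, 1426 without E12.5 females 2 and 3, 223 with a 2-fold limit, 2151 with the block, and 1688 to 3221 leaving out 1 library. Among named genes, the sign turned in 6 cases where the gene was called as reported or under the alternative; turns in genes called under neither were not counted. Barx1 (1.22) was at -0.92 with males only and -0.96 without E12.5 females 2 and 3, Gcg (0.05) at -0.66 and -0.76 under the same settings, Nkx6-3 (0.18) at -0.45 without those females, and Fabp7 (-0.81) at 0.0735 with all libraries as labelled. For Barx1, Gcg and Nkx6-3 the setting leaves out the 2 libraries with almost no stomach RNA, and for Fabp7 it adds the libraries labelled null that held Ret RNA. Of 150 named genes called between the stages, 93 kept their call in every alternative but the block, and 111 of 816 list medians moved by more than 1 SD of the list's mean log2 level between the E12.5 libraries. Depth of 6.19 to 7.47 M fragments limits low genes at E14.5.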

Other observations

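The 3 E14.5 libraries labelled null that held Ret RNA (females 1 and 3 and male 1, with 5.76 to 6.49 FPKM of Ret) entered no fit above other than that of all libraries as labelled. Their values lay near one group for some genes and near the other for others. For the neuronal gene Tubb3 and the glial gene Fabp7 they were with wild type. Tubb3 stood at 47.4, 56.7 and 56.9 FPKM in them, at 0.786 to 4.54 FPKM in E14.5 gut lacking Ret RNA and at 20.1 to 59.1 FPKM in E14.5 wild type. Fabp7 stood at 20.1, 17.5 and 23.7 FPKM, against 3.59 to 6.15 FPKM in gut lacking Ret RNA and 9.26 to 23.99 FPKM in wild type. The neuronal gene Npy was less clear, at 3.33, 1.91 and 1.34 FPKM in these libraries, below the median of 4.64 FPKM in E14.5 wild type.

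For several epithelial and blood genes the same libraries were with gut lacking Ret RNA. Lypd8 stood at 39.9, 25.6 and 44.2 FPKM in them, at 31.8 to 45.2 FPKM in E14.5 gut lacking Ret RNA and at 67.6 to 188 FPKM in E14.5 wild type. Adh1 stood at 1.68, 3.495 and 1.65 FPKM, against 1.77 to 2.11 FPKM in gut lacking Ret RNA and 3.503 to 145 FPKM in wild type. For this gene female 3 was the exception, next to the lowest wild-type library. Hbb-b2 stood at 529, 1051 and 659 FPKM, against 600.3 to 1137 and 1354 to 9239 FPKM. For Hmga2 the values were 86.1, 72.8 and 72.6 FPKM, with 81.0 to 90.7 FPKM in gut lacking Ret RNA and 27.0 to 53.3 FPKM in wild type. Apart from Adh1 in female 3, the differences of the genes shown here were shared by libraries labelled null whether or not they held Ret RNA. Other genes with a called difference were mixed between these libraries. Prap1 stood at 40.5, 9.88 and 10.9 FPKM in them, with a median of 25.7 FPKM in E14.5 wild type. Cox7a2 stood at 89.6, 119.8 and 69.3 FPKM, with a median of 116.4 FPKM in E14.5 wild type. Whether the differences go with the genotype, the dissection or another property of the libraries was not tested.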
